A study of Mus musculus with 6 samples.

Results

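Tendon and matrix proteoglycan genes were followed on 6 Illumina bead arrays of mouse tibialis anterior, the muscle at the front of the shin, which ends in a long tendon. The set holds 9 genes: the small leucine-rich proteoglycans Dcn (decorin), Bgn (biglycan), Fmod (fibromodulin) and Lum (lumican), the leucine-rich repeat protein Chad (chondroadherin), the tenocyte membrane protein Tnmd (tenomodulin), the thrombospondin relatives Comp and Thbs4, and Sparc. All 17 probes that the platform annotation assigns to these symbols were taken, out of 45281 probes and 19057 annotated genes. The genes were brought together as a possible readout of tendon or fascia in each dissected muscle, and Chad and Sparc were chosen by their signal as well, because it varied between arrays. Values of Chad and Sparc are therefore a description and carry no test.

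The animals were male mice of 8 weeks on a mixed Sv129/Black Swiss background. Of these, 3 were wild type and 3 carried Neb∆SH3, a deletion of the SH3 domain of nebulin, and each gave 1 array. Nebulin is a giant protein of the thin filament, and the SH3 domain forms its end in the Z-disc. The labels do not say how the allele was made, in which cells it is active or whether animals were littermates. The replicates are biological per the design text. The question that the comparison addresses is whether losing the domain alters transcript levels in this muscle.

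Tendon is built of aligned collagen fibrils, laid down by tenocytes that depend on the transcription factor scleraxis. Small leucine-rich proteoglycans bind the surface of those fibrils and control their width and spacing, and the same proteins occur in the connective tissue sheaths within muscle. Chondroadherin binds collagen and cell-surface integrins and is best known from cartilage and tendon. SPARC binds collagen and calcium and is made by fibroblasts, endothelial cells and muscle cells alike. In a bulk sample, fewer cells of a type and less RNA per cell cannot be told apart.

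Promoter sequence is shown for Chad and Sparc, because among the members they varied most between arrays. It is shown for Bgn as well, because it was the proteoglycan whose groups did not overlap after normalization. RefSeq windows on GRCm38.p6 were found for 6 of the 9 genes (not for Dcn, Lum and Comp). Each line gives the 250 bases before the annotated gene start, 5′ to 3′ on the gene's strand. Capitals mark TATAAA (the TATA box, searched on both strands) and CANNTG (the E-box, a palindromic core that scleraxis and other basic helix-loop-helix factors can bind).
Chad, chr11:94564797-94565046, plus strand: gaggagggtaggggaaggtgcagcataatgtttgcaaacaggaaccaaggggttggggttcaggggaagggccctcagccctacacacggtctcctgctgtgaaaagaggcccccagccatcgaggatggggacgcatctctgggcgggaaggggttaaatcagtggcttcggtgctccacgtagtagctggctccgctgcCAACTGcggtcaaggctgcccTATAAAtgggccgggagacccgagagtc
Sparc, chr11:55420081-55420330, minus strand: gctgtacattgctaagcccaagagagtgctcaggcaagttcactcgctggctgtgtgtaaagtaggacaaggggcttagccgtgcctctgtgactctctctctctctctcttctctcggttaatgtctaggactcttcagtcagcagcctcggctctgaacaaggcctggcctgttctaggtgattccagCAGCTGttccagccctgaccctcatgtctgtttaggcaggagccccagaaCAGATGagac
Bgn, chrX:73483351-73483600, plus strand: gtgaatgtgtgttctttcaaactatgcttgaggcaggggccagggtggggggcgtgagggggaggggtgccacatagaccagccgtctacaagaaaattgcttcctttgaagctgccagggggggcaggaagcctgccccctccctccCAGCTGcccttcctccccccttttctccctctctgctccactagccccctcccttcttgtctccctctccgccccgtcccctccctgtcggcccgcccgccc

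The Chad window held 1 TATAAA, whose first base lies at -28 from the gene start, and 1 E-box at -49 (CAACTG). The Sparc window held no TATAAA and 2 E-boxes, at -60 (CAGCTG) and -10 (CAGATG), and the Bgn window 1 E-box at -102 (CAGCTG). Of 32851 windows of this length in the table, 12.4% held TATAAA and 66.2% at least 1 E-box, so the E-box matches are common letters. No match in these windows overlapped another. Dcn and Lum lie next to each other on chromosome 10, at 97479500-97518163 and 97565501-97572703, 47.3 kb apart with 0 annotated protein-coding genes between them. The other members are scattered, with Chad and Sparc far apart on chromosome 11, Bgn and Tnmd on X, Fmod on 1, Comp on 8 and Thbs4 on 13.

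The arrays were dim. The median signal per array ran from 83.3 to 88.9, and 4000 to 5844 probes per array were above background, meaning a detection p under 0.05 against negative control beads. The fast muscle genes fixed for the tissue check were present, with 11 to 12 of 12 above background on each array. The single Neb probe never rose above background on the 6 arrays (detection p 0.543 to 0.882), so it does not check the genotype labels. Vim, which fibroblasts express strongly, was also above background on 0 arrays, so a probe that stays in the background does not show that its transcript is absent.

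Of the 9 genes in the set, 5 were measurable and 4 (Fmod, Thbs4, Tnmd and Comp) were not. Of the 17 probes, 7 passed the filter of a detection p under 0.05 on at least 3 arrays, and they belong to Chad, Sparc, Dcn, Bgn and Lum. The share over all probes was 7.56%. Fmod, which helps early collagen fibrils assemble, had 2 probes with detection p-values of 0.153 to 0.764 and 0.382 to 0.907. The Thbs4 probe ran from 0.358 to 0.918. Both were above background on 0 arrays. Tnmd, the most specific tenocyte marker of the set, passed on wild type replicate 1 (0.028) and Neb∆SH3 replicate 1 (0.040) and on no other array, with a lowest p of 0.064 among the rest. Comp, a cartilage and tendon matrix protein, passed with 1 of its 2 probes on Neb∆SH3 replicate 3 (0.041). Over the 10 probes under the filter, 4 of 60 measurements were above background. The filter itself held that count low, so it does not show that these probes read background alone. No fold is given for Fmod, Thbs4, Tnmd and Comp.

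The label of the set was checked against further tendon markers, and most of them were as dim. Of 10 such genes on the array, 5 were above background on no array. Mkx (the transcription factor mohawk) was among these, and Scx (scleraxis) was above background on 2 of 6 arrays. Angptl7, a secreted protein listed here as a tenocyte marker, was above background on 5 of 6 arrays, as many as Chad. Among further leucine-rich proteoglycans, Kera, Epyc and Aspn were above background on 0 arrays and Prelp on 3. These values do not separate a tendon signal from any other source of Chad transcript. The genes are therefore described one by one, and no tendon level is given for an array.

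**Figure D1:**
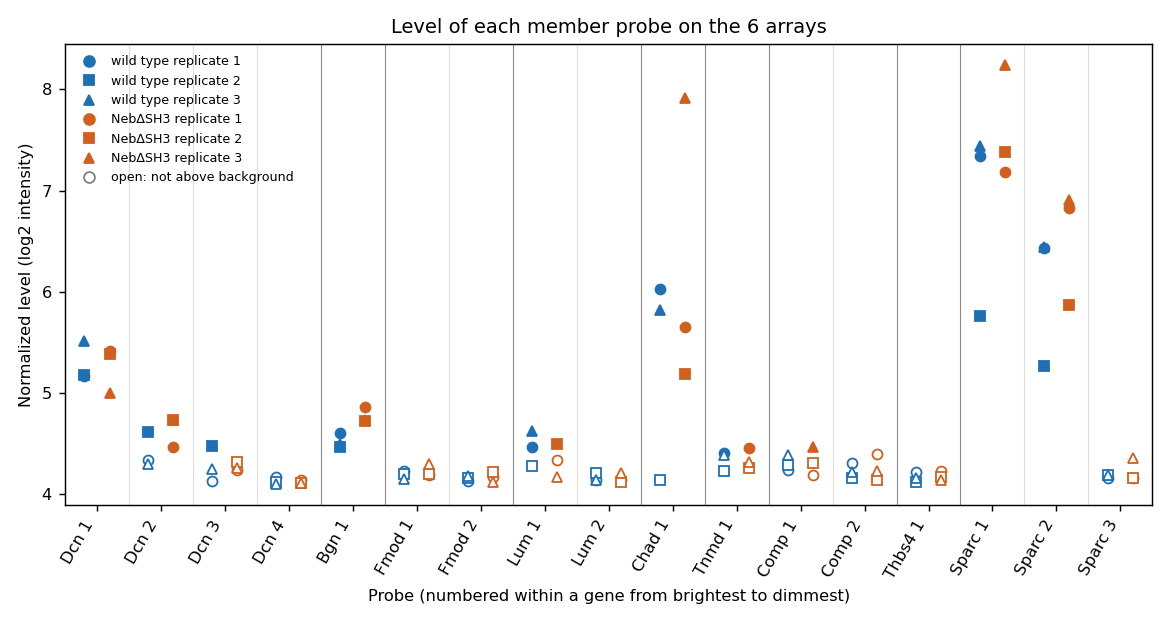
Normalized log2 intensity of the 17 member probes on the 6 arrays, with 1 point per array, wild type in blue and Neb∆SH3 in orange, and open symbols for probes not above background. Chad and the first 2 Sparc probes spread widely, Dcn, Bgn and Lum sit low and close together, and the other probes lie in the background.

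Chad differed widely between the arrays, as its choice implies. Its probe (ILMN_2659340) was at 6.03, 4.14 and 5.82 (normalized log2 intensity) in wild type replicates 1, 2 and 3. The corresponding Neb∆SH3 levels were 5.65, 5.19 and 7.91. It was not above background in wild type replicate 2 (detection p 0.841) and was above it on the other 5 arrays. The normalized levels spanned 3.77 log2 units (rank 1 of 3011 genes, median range 0.57), and the low end is a background value on which the size of the span rests. Without background correction the span was 1.93 and the rank 3. Before any correction the signal in wild type replicate 2 was 80.0, below that array's median of 83.3, and in Neb∆SH3 replicate 3 it was 265 against a median of 88.9. The other 4 arrays lay between 110.5 and 151. A single array at each end therefore made up the range, one from each genotype.

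Sparc showed the same arrays at its extremes. Its brightest probe (ILMN_3059326) was at 7.34, 5.76 and 7.44 in wild type replicates 1, 2 and 3. It was at 7.19, 7.38 and 8.24 in Neb∆SH3 replicates 1, 2 and 3. A second probe (ILMN_3136561) gave 6.43, 5.27 and 6.44 in wild type, and 6.83, 5.87 and 6.91 in Neb∆SH3 muscle. On both probes wild type replicate 2 was lowest and Neb∆SH3 replicate 3 highest. Before normalization, as signal above the array median, the second probe was highest in wild type replicate 1 (91.5) and not in Neb∆SH3 replicate 3 (84.2). In between the probes did not keep 1 order: Neb∆SH3 replicate 1 was next to lowest on the first probe and next to highest on the second. The third Sparc probe (ILMN_1243212) was above background on 0 arrays. The range of the brightest probe, 2.48, ranked 9 of 3011 genes.

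**Figure D2:**
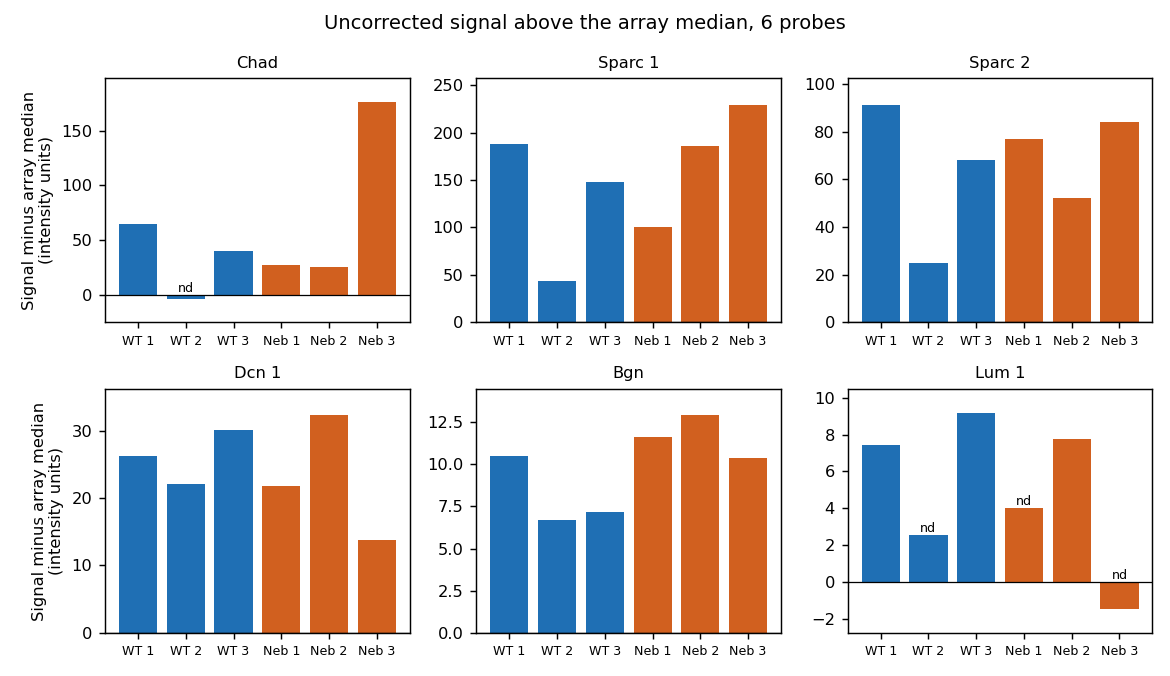
Uncorrected signal minus the array's median signal (intensity units, bars from 0) on wild type (WT, blue) and Neb∆SH3 (Neb, orange) arrays, with nd for a probe not above background; each panel has its own scale. Chad is below the median in wild type replicate 2 and reaches its highest bar in Neb∆SH3 replicate 3, Sparc is lowest in wild type replicate 2 on both probes, and Dcn is lowest in Neb∆SH3 replicate 3.

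The genotype means of Chad and Sparc lay within the spread of the arrays. Chad averaged 5.33 ± 1.04 in wild type and 6.25 ± 1.46 in Neb∆SH3 muscle (log2 intensity ± SD, n = 3 each), a difference of 0.92. Without Neb∆SH3 replicate 3 that difference was 0.09, and without wild type replicate 2 it was 0.32. Leaving out any other array gave 1.16 to 1.45. Sparc was at 6.85 ± 0.94 and 7.60 ± 0.56 (SD, n = 3 each) on the brightest probe, a difference of 0.75, and its second probe differed by 0.49. Without wild type replicate 2 the Sparc difference was 0.21, and without Neb∆SH3 replicate 3 it was 0.43. For both genes the groups overlapped. The 4 arrays between the extremes ran from 5.19 to 6.03 for Chad and from 7.19 to 7.44 for the brightest Sparc probe. Without background correction the differences were smaller, at 0.50 for Chad and 0.48 for Sparc.

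The likeness of Chad and Sparc rests on the extreme arrays. Over the 6 arrays their levels correlated with a Pearson r of 0.90, which placed Sparc 24th of 2552 named genes ranked by likeness to Chad. Without wild type replicate 2 and Neb∆SH3 replicate 3, the arrays farthest from the median of Chad, r was 0.02. The values share arrays and normalization, and no p is given because the genes were chosen for this pattern. For the brightest probes of the 3 proteoglycans that passed the filter, r to Chad was 0.41 for Bgn, -0.30 for Lum and -0.44 for Dcn. Bgn and Lum lay near background, and 6 arrays fix an r only loosely. These values therefore do not show that the proteoglycans varied apart from Chad.

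The 5 genes most like Chad and the 5 most like Sparc across the arrays were not tendon or matrix genes. They are the highest r among 2552 named genes, of which 25 exceeded 0.9 for Chad and 17 for Sparc. Only 28 tested genes outside the members were in the matrix lists used below, so a top 5 without them says little. Those most like Chad were Pon2, a paraoxonase (r 0.99 over 6 arrays), Psmg2, a chaperone of proteasome assembly (0.98), Rps6, a ribosomal protein (0.98), Kif23, a kinesin of cell division (0.98), and Sppl2b, an intramembrane protease (0.96). With the extreme arrays left out, Pon2 and Psmg2 were at 0.98 each, Rps6 at 0.88, Kif23 at 0.81 and Sppl2b at 0.48. These values rest on the few arrays that remained. Those most like Sparc were Maged2, of the MAGE family (0.99), Smox, spermine oxidase (0.97), Mylpf, the regulatory light chain of fast myosin (0.97), Zfp622, a zinc finger protein (0.95), and Zeb1, a transcription factor (0.95). Without its extreme arrays, Mylpf was at 0.82 and the others between -0.24 and 0.56. Rps6 has near-identical pseudogenes, so its probe may read more than 1 locus. Kif23 had a range of 3.30, the second widest after Chad, also from wild type replicate 2 (5.33) to Neb∆SH3 replicate 3 (8.63). Over all genes tested, 15% were lowest in wild type replicate 2 and 16.4% highest in Neb∆SH3 replicate 3.

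**Figure D3:**
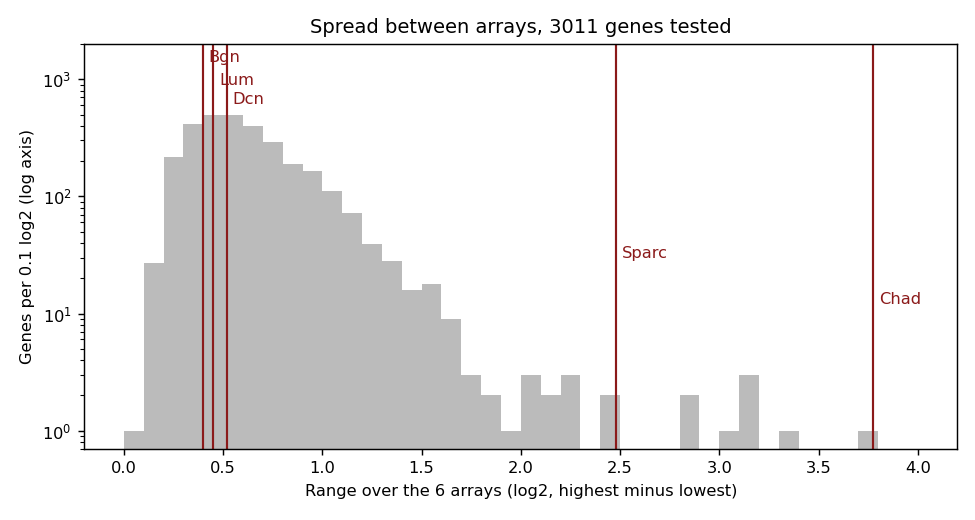
Number of genes (log axis) by the range of their normalized level over the 6 arrays (log2, highest minus lowest) for the 3011 genes tested, with lines at the 5 members that passed the filter. Bgn (0.40), Lum (0.45) and Dcn (0.52) lie below the median of 0.57, Sparc is at 2.48 and Chad at 3.77. Bgn and Lum are near background, which holds their range small.

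None of the 3 measured fibril-binding proteoglycans passed the genotype test. Their ranges were 0.40 (Bgn), 0.45 (Lum) and 0.52 (Dcn), against a median of 0.57 over all genes tested, so that of Dcn was near the median. Bgn and Lum lay near background, where a range is held small, so their narrow spread does not show stable expression. Bgn signals ran from 90.0 to 99.2, and the lowest signal above background ran from 88.7 to 95.1 across the arrays. In all, 0% of the 3011 genes passed an adjusted p of 0.05, so the 0 of 3 proteoglycans past it says nothing particular about them. Bgn, which binds collagen and TGF-β, was at 4.61, 4.47 and 4.50 in wild type replicates 1, 2 and 3. It was at 4.87, 4.72 and 4.73 in Neb∆SH3 replicates 1, 2 and 3. Every Neb∆SH3 array was above every wild type array, and the probe was above background on all 6. Means were 4.53 ± 0.07 and 4.77 ± 0.08 (log2 intensity, SD, n = 3 each), a difference of 0.25 (95% interval -0.08 to 0.57, adjusted p 0.979 by limma with Benjamini-Hochberg adjustment). Groups were separated in this direction for 3.49% of all genes tested. The separation held after normalization only: as uncorrected signal above the array median, wild type replicate 1 (10.5 intensity units) lay above Neb∆SH3 replicate 3 (10.3). Without background correction the difference was 0.07.

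Dcn, the most abundant small proteoglycan of tendon and muscle connective tissue, did not differ beyond the spread. Its brightest probe (ILMN_2747959) was at 5.17, 5.18 and 5.52 in wild type and 5.42, 5.38 and 5.0 in Neb∆SH3 replicates 1, 2 and 3. The groups overlapped, and Neb∆SH3 replicate 3, where Chad and Sparc were highest, was the lowest array. The difference was -0.02 (95% interval -0.42 to 0.37, adjusted p 0.993 by limma), and its sign turned in 4 of 18 alternatives. A second probe (ILMN_2596346) gave 4.34, 4.61 and 4.30 in wild type and 4.47, 4.73 and 4.73 in Neb∆SH3 muscle, with an overlap between the groups. It passed detection on 3 Neb∆SH3 arrays and on 1 wild type array, so the Neb∆SH3 arrays, where it was higher, carried it past the filter, and its difference of 0.22 is given without a test. The other 2 Dcn probes were above background on 1 and 0 arrays. The measured decorin probes thus did not share an order of arrays.

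Lum, a keratan sulphate proteoglycan that limits fibril growth, was at the edge of detection. It was at 4.47, 4.28 and 4.62 in wild type and 4.34, 4.50 and 4.17 in Neb∆SH3 replicates 1, 2 and 3. Detection was reached on wild type replicates 1 and 3 and Neb∆SH3 replicate 2, and the groups overlapped. The difference was -0.12 (95% interval -0.49 to 0.25, adjusted p 0.981 by limma). Leaving out Neb∆SH3 replicate 3 gave -0.04, and leaving out wild type replicate 2 gave -0.21. As for Dcn, the lowest array was Neb∆SH3 replicate 3 and the highest wild type replicate 3.

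Other matrix genes were read from 9 lists that together have 108 genes on the array, of which 28 passed the filter. None passed the test (0 of 28). At an unadjusted p under 0.05 there was 1, beside 4.28% of all genes. In Neb∆SH3 muscle 20 of the 28 lay higher and 8 lower (71.4% higher, against 44.7% of all genes), with a median log2 difference of 0.16 against -0.02. The filter bears on these counts. Of the 28 genes, 13 were above background on unequal numbers of wild type and Neb∆SH3 arrays, and 11 of those were higher in the group with more such arrays (6 in Neb∆SH3, 5 in wild type). With no filter 63 of 108 lay higher (58.3%, against 50.3% of all genes) and the median was 0.02. With the strictest filter 10 of 10 did (51.1% of all genes), with a median of 0.23. With 1 array left out the count ran from 17 of 28 (median 0.05, without wild type replicate 2) to 23 of 28 (median 0.26, without wild type replicate 3), and the median was 0.09 without Neb∆SH3 replicate 1. Without wild type replicate 2 and Neb∆SH3 replicate 1 together, 16 of 28 lay higher (57.1%, against 46.5% of all genes). The median was then 0.02. Median scaling of the arrays gave 15 of 28 (53.6%) and a median of 0.00, while all genes moved to 30.5% and -0.09. Wild type replicate 2 was the lowest array for 11 of the 28 genes (39.3%, against 15% of all genes), with a median deviation of -0.16 from each gene's mean there. Neb∆SH3 replicate 3 was the highest array for 7 of the 28 (25%, against 16.4%), with a median deviation of 0.03, and the median deviation was highest in Neb∆SH3 replicate 1 (0.15). No test was made of these shares. The fast muscle genes moved in wild type replicate 2 as well, with a median deviation of -0.17 over 11 genes. They were also low in Neb∆SH3 replicate 2 (-0.13), where the median deviation of the 28 matrix genes was -0.008. On the other arrays the fast muscle genes lay at 0.09 to 0.11. Their part in the result was not tested.

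**Figure D4:**
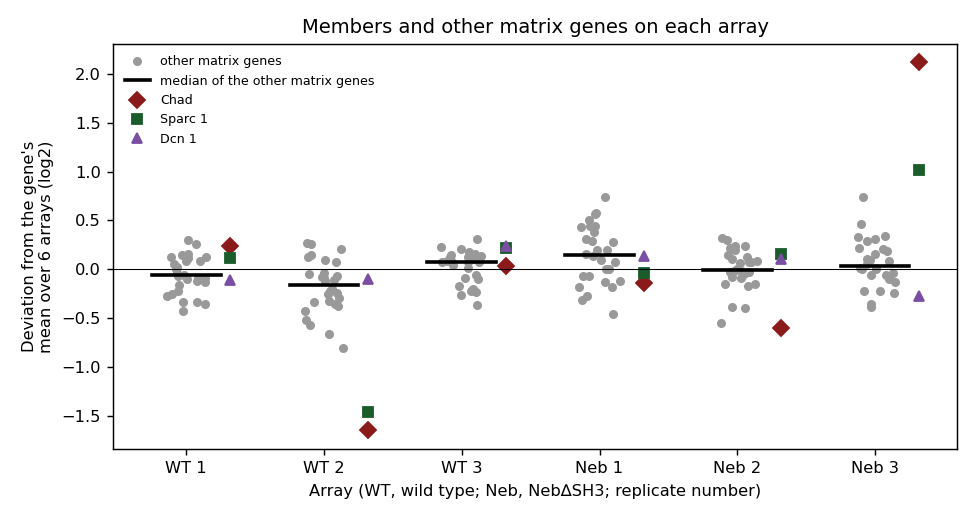
Deviation of each gene from its own mean over the 6 arrays (log2) for the 28 other matrix genes (grey points, black bar at their median), Chad, the brightest Sparc probe and the brightest Dcn probe. Medians of the other matrix genes run from -0.16 in wild type replicate 2 to 0.15 in Neb∆SH3 replicate 1, while Chad and Sparc stand apart in wild type replicate 2 and Neb∆SH3 replicate 3.

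By role, the further proteoglycans gave 1 measured gene of 11 on the array, Prelp, at 0.35 (95% interval -0.25 to 0.95). With 1 array left out it ran from 0.07 (without Neb∆SH3 replicate 3) to 0.67 (without Neb∆SH3 replicate 1). Of 10 further tendon genes 1 was measured, Angptl7, at 0.31 (-0.09 to 0.71) and at 0.20 without Neb∆SH3 replicate 1. Fibrillar collagens gave 2 of 7, 1 higher and 1 lower (Col5a1, -0.10), with Col1a1, the main chain of type I collagen in tendon, at 0.38 (-0.22 to 0.99), 0.08 without wild type replicate 2. Like Chad, it was not above background in that array, where its level was 4.18 against 4.82 to 5.41 in the others. Of the basement membrane and microfibrillar collagens, 5 of 6 were measured, 4 higher and 1 lower. Col6a1, a chain of the collagen VI network around muscle fibres, was at 5.74 to 6.21 in wild type and 6.59 to 6.64 in Neb∆SH3 muscle, a difference of 0.60 (0.23 to 0.97, adjusted p 0.979 by limma). Its groups did not overlap, as for 3.49% of all genes tested in this direction, and its second probe was at 0.28. The unadjusted p of Col6a1 was 0.0044 by limma. The Col6a1 difference was 0.36 with median scaling (unadjusted p 0.149 by limma) and 0.32 without background correction (unadjusted p 0.0016 by limma).

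The matricellular proteins had 3 of 17 measured, 1 higher and 2 lower. The higher one was Tnxb, which encodes tenascin X, at 0.32 (95% interval -0.07 to 0.72), with a second probe at -0.03. Detection was reached on 3 Neb∆SH3 arrays but 1 wild type array, so its direction was favoured by the filter. Collagen maturation and cross-linking had 5 of 18 measured, 4 higher, with Loxl1, a lysyl oxidase relative, at 0.19 (-0.39 to 0.77). Elastic fibre and fascia genes had 3 of 14 measured, all higher, with Mgp, matrix Gla protein, at 0.31 (-0.12 to 0.73) and at 0.49 without wild type replicate 3. Matrix proteases and inhibitors had 4 of 12 measured, 3 higher, with Timp2, a metalloproteinase inhibitor, at 0.30 (-0.20 to 0.79) and 0.04 without wild type replicate 2. The TGF-β list had 4 of 13 measured, 2 higher, with Smad3, a signal transducer, at 0.29 (-0.14 to 0.73). Leaving out wild type replicate 1 gave 0.15 for Smad3, and leaving out wild type replicate 2 gave 0.47. The values named here are the gene of smallest unadjusted p in each list, and apart from Col6a1 every interval contains 0.

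**Figure D5:**
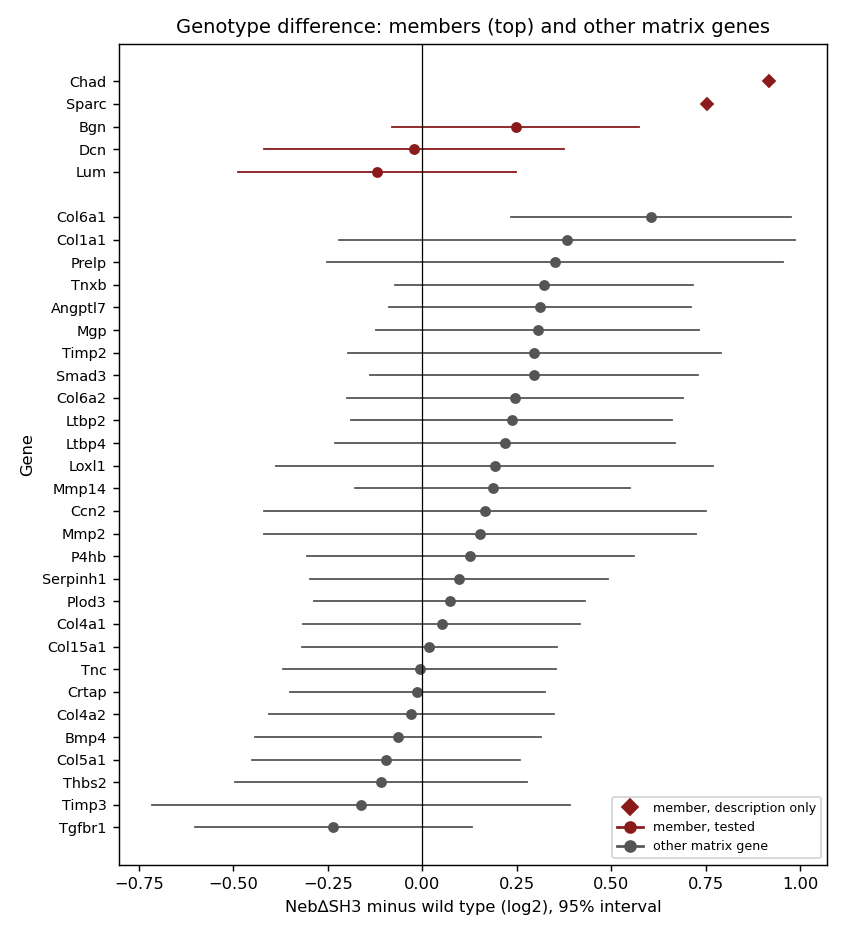
Neb∆SH3 minus wild type difference (log2) with its 95% interval from limma (n = 3 each) for the tested members and the 28 other matrix genes; Chad and Sparc are diamonds without an interval, because they were chosen for their spread. Intervals of Bgn, Dcn and Lum contain 0, and among the others only that of Col6a1 (0.60) does not.

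Markers of other cell types that a dissected muscle can hold were mostly dim. Fibroblast and progenitor markers had 2 of 13 genes measured and a range of 0 to 4 genes above background per array, with 0 in Neb∆SH3 replicates 1 and 3. Their gene of smallest p was Tcf4, at -0.12 (95% interval -0.61 to 0.36). The symbol Tcf4 is not that of the fibroblast marker Tcf7l2, so this value is not read as one of fibroblasts. The other measured gene of the list was Gsn, at -0.0012 (-0.54 to 0.53). Pdgfra, the defining receptor of the progenitors, was above background on 1 array. Cartilage and bone markers had 1 of 10 measured (Sox9, -0.12, -0.46 to 0.21), with Acan, Bglap and Ibsp above background on 0 arrays and Col2a1 on 1. Nerve and Schwann markers had 0 of 5 measured. Adipocyte markers had 1 of 7 (Lep, 0.10, -0.24 to 0.43) and macrophage and leukocyte markers 2 of 8, with Lyz2 at -0.26 (-0.97 to 0.44). With 1 array left out Lyz2 ran from -0.67 (without Neb∆SH3 replicate 2, unadjusted p 0.0156 by limma) to -0.03 (without Neb∆SH3 replicate 3). Endothelial and pericyte markers had 4 of 10 measured, with Rgs5, a pericyte gene, at -0.40 (-0.79 to -0.0016, unadjusted p 0.0493 by limma). With 1 array left out Rgs5 ran from -0.49 (without Neb∆SH3 replicate 2) to -0.25 (without wild type replicate 3). It was at -0.12 without background correction (unadjusted p 0.0749 by limma) and at -0.44 with median scaling (unadjusted p 0.0405 by limma). All 4 measured endothelial and pericyte markers lay lower in Neb∆SH3 muscle, as did 1664 of the 3011 genes tested. For 2 of the 4 (Rgs5 and Pecam1) the groups did not overlap, as for 5.85% of all genes in this direction. Pecam1 passed the filter on 3 wild type and 0 Neb∆SH3 arrays, so its direction was favoured by the filter. Fast muscle genes had 6 higher and 5 lower, with Acta1, skeletal actin, at 0.38 (-0.04 to 0.80), which turned to -0.016 with median scaling. Tcf4 and Sox9 each reached detection on 1 Neb∆SH3 array against 3 wild type arrays, so the filter favoured their direction. None of these genes passed the adjusted threshold.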

How the data were processed

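Per the labels' protocols, Trizol-extracted total RNA was checked on a Bioanalyzer and turned into biotin-labelled cRNA for Illumina arrays. The raw table that the authors deposited gives, per the file headers, a mean intensity and a detection p-value per probe and array (45281 probes, 6 arrays). A further table that the authors deposited behaves as quantile-normalized log2 values. The submitters' processing notes name lumi for it, and it is not known whether that scale is plain log2 or variance-stabilized.

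Intensities were background-corrected by the normexp method, with the background taken from detection p-values and an offset of 16, then converted to log2 and quantile normalized. Such a correction widens the differences of dim probes. The filter kept 3422 probes that reached a detection p under 0.05 on 3 or more arrays. Each gene was represented by its brightest kept probe, which gave 3011 genes, 2553 of them with a symbol from the platform annotation. The genotype comparison used limma 3.58.1 under R 4.3.3 (lmFit and eBayes) with no covariate. Its p-values are two-sided, were adjusted by Benjamini-Hochberg across the genes tested and were read at 0.05. The number of arrays limits the precision. The path was tested on simulated arrays.

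The members, the lists and the tests were chosen with earlier results of these data known, so no list is independent evidence of its direction. The naming rule allowed up to 3 tested genes of smallest unadjusted p per list, of which the text gives the first, and the 5 genes of highest correlation for Chad and Sparc. Groups follow the sample titles. The alternatives covered background correction, normalization, the filter, the choice of probe, array weights, a replicate block, eBayes with trend, a threshold of 0.1 and arrays left out.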

Additional observations from a re-analysis of the deposited data

How the results depend on the processing

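In all 20 alternatives 0 genes passed the threshold by limma, 0 members among them. Unadjusted p-values under 0.05 by limma numbered 129 of 3011 genes as reported. They numbered 32 of 1030 with the strictest filter and 1249 of 29453 with no filter. The labels do not say that replicate numbers pair the mice, so the numbers were not taken as pairs. Same-numbered arrays had deviations from their group means that correlated at -0.206, -0.15 and 0.0916, and not every array was closest to the one of its number. Deviations from a mean of 3 arrays depend on one another, so these values cannot decide whether the mice were paired. With the replicate block 0 genes and 0 members passed.

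Signs turned for Dcn with cyclic loess (0.010) and with the mean of its probes (0.10), and with 1 array left out it ran from -0.097 to 0.11, positive without wild type replicate 3 (0.09) or Neb∆SH3 replicate 3. With 1 array left out Loxl1 ran from -0.047 (without Neb∆SH3 replicate 1) to 0.44, negative also without wild type replicate 2 (-0.02), and Tcf4 from -0.36 to 0.048 (without Neb∆SH3 replicate 3). Without wild type replicate 2 and Neb∆SH3 replicate 1 together, Loxl1 was at -0.26 and Col1a1 at -0.040. Acta1 was at -0.016 with median scaling. The cause was not tested.

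Chad kept its lowest and highest array in the 5 alternatives that changed its own values, with ranks of 1 to 3 by range, and Sparc in 6, with ranks of 4 to 19. The range of Chad fell to 1.93 without background correction and 1.92 in the deposited values. The strictest filter (all 6 arrays at a detection p under 0.01) removed Chad, Bgn and Lum. Median scaling moved the median difference of all genes from -0.02 to -0.09. Among genes at an unadjusted p under 0.05, the share higher in Neb∆SH3 muscle moved from 38.0% to 6.10% with median scaling and 52.1% with cyclic loess. No slide is named in the labels or headers, so it was not used as a block. Signal over background limits these values, as 71.6% of probes never rose above it.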
